A study of Mus musculus with 4 samples.

Results

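Ribosome footprints on the insulin-like growth factor (IGF) axis were examined in cultured mouse myoblasts. The axis was taken as 10 genes picked by symbol from the 55573 genes of the deposited table, and each symbol matched a single row. They were the ligands Igf1 and Igf2, the receptors Igf1r and Igf2r, and the binding proteins Igfbp2, Igfbp3, Igfbp4, Igfbp5, Igfbp6 and Igfbp7. Igfbp5 and Igfbp7 carried most of the signal, the ligands had few reads, and no member passed the test between the groups.

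The data came from Ribo-seq, in which the pieces of mRNA shielded by ribosomes from nuclease are sequenced. Primary myoblasts, the dividing progeny of muscle stem cells, were prepared from hind-limb muscle of mice 3 weeks old and sampled on day 2 of proliferation, with 2 libraries from wild-type (WT) cells and 2 from cells labelled eIF5A knockout (KO), called KO-labelled throughout. According to the study, its KO mice were Pax7CreERT2/+;eIF5A f/f and were induced with tamoxifen. Its WT mice are given as Pax7CreERT2/+ in one place and as Pax7+/+;eIF5A f/f in another, and those of the Ribo-seq only as littermates, so whether the WT cells here carried Cre is not known. All cultures had 10% fetal bovine serum and 10 μg/ml FGF, and received cycloheximide at 100 μg/ml before lysis. Cre in the KO mice acts in cells that express Pax7, so other cells of a culture keep eIF5A. The labels do not say how many animals or cultures stood behind a library, and p-values measure only the spread between these libraries.

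IGF1 and IGF2 are secreted peptides that bind the tyrosine kinase IGF1R, which signals through insulin receptor substrates to PI3K and Akt. IGF2R, the mannose 6-phosphate receptor, has no kinase and carries IGF2 to lysosomes for breakdown. The binding proteins hold IGFs outside the cell and can restrain or deliver them, and in skeletal muscle the axis is known to promote both growth and differentiation of myoblasts. The factor eIF5A helps ribosomes through difficult peptide bonds, above all in stretches of consecutive prolines.

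The coding sequences of the members (GENCODE vM21, GRCm38, longest complete coding sequence of each gene) were therefore read for 3 or more proline codons in a row. Igfbp2 and Igfbp3 held such runs and the other 8 members held none. Among all 22479 genes with a coding sequence, 4387 (19.5%) held at least 1 such run. The windows are shown because proline runs are the sequences on which eIF5A is best known to act, and the proline codons are in capitals.
Igfbp2 codons 53 to 55, chr1:72824715-72824765, plus strand: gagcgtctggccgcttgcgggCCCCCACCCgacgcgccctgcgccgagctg
Igfbp2 codons 200 to 202, chr1:72849292-72849312, plus strand: ttgcgcCCGCCTCCCgccagg
Igfbp3 codons 53 to 55, chr11:7213605-7213655, minus strand: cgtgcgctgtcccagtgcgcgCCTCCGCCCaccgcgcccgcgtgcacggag
The first run of Igfbp2 and the run of Igfbp3 stood at the same codon numbers. Each value below is a sum over a whole gene, so footprints at these codons could not be seen separately.

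A second stretch of sequence marks the family itself. The amino-terminal domain of the classical IGF binding proteins carries the IGFBP motif, a short run of glycine and cysteine codons. A search of all coding sequences of the annotation found it in 18 genes. Among the members it was present in Igfbp2, Igfbp3, Igfbp4 and Igfbp5, and it was absent as written here from Igfbp6 and Igfbp7. The coding bases are given below to show how far these 4 genes differ at the site, with the glycine and cysteine codons of the motif in capitals.
Igfbp2, chr1:72824778-72824801, plus strand: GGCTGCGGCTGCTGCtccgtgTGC
Igfbp3, chr11:7213566-7213589, minus strand: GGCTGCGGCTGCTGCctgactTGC
Igfbp4, chr11:99041650-99041673, plus strand: GGCTGCGGTTGTTGCgccactTGC
Igfbp5, chr1:72873966-72873989, minus strand: GGCTGTGGCTGCTGCatgactTGC
In Igfbp2 and Igfbp3 the run began just downstream of the first proline stretch, at codons 67 and 68.

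The libraries held 642429 to 704006 gene-assigned reads, and protein-coding genes took 33.9% to 41.5% of them in WT and 59.2% to 65.4% in the KO-labelled libraries. Eif5a, the targeted gene, had 50 and 73 reads in WT replicates 1 and 2 and 130 and 114 reads in the KO-labelled libraries, a log2 difference of 0.32 ± 0.48 (SE; adjusted p = 0.839 in limma) that was -0.12 without WT replicate 1, 0.76 without WT replicate 2 and 0.92 scaled to total reads. The targeted gene thus did not set the groups apart, and each direction given here follows the labels alone. Of 10 myoblast markers 9 reached 3 reads in at least 1 library, all but Msc, and their summed level was 211 to 346 RPKM in WT and 118 to 133 RPKM in the KO-labelled libraries, where 5 of the 9 tested were lower at an unadjusted p under 0.05 in limma, against 7.32% of all genes tested in either direction. Differentiated muscle markers summed to 77.1 to 233 RPKM and 42.7 to 45.8 RPKM, with WT replicate 1 far above the rest. Fibroblast markers were abundant at 417 to 633 RPKM in WT and 496 to 1051 RPKM in the KO-labelled libraries, and endothelial markers stood at 179 to 266 and 286 to 350 RPKM, with none at 0 in all libraries. Mural markers summed to 129 to 172 and 113 to 117 RPKM, glial markers to 13.6 to 30.1 and 19.1 to 25.4 RPKM, and immune markers to 28.4 to 38.5 RPKM and at most 25.9 RPKM, with Itgam at 0 reads in every library. At that unadjusted p 3 of 9 differentiated muscle markers were lower, 1 of 6 endothelial markers was higher, 1 of 3 immune markers was higher and 1 lower, and no fibroblast, mural or glial marker was called. No marker had an adjusted p under 0.05 in limma. The genes with the most reads in these lists were Myod1, Ttn, Dcn, Cdh5, Pdgfrb, Sox10 and Cd68. The part of these cell types in the values of the IGF genes was not tested. In bulk libraries, fewer cells of a type and less RNA per cell cannot be told apart.

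RPKM here means reads per kilobase of gene length, which the authors had scaled to bring the typical gene to a common level across libraries. Multiplying by gene length gave back whole reads. A read weighed less in the KO-labelled libraries, whose scaling totals were 906990 and 807705 against 602863 and 471136 in WT, so a gene with more reads there could have the lower RPKM. The 10 members together held 3180 reads over the 4 libraries. Of these, 2223 fell on the binding proteins, 926 on the receptors and 31 on the ligands. The members took 0.360% of protein-coding reads in WT replicate 1 (95% Wilson interval 0.338% to 0.383%) and 0.221% in WT replicate 2 (0.203% to 0.242%). In the KO-labelled libraries they took 0.202% (0.190% to 0.216%) and 0.208% (0.194% to 0.223%). WT replicate 1 stood above the other 3 libraries, whose intervals overlapped. These intervals cover counting error only, and they take each read as independent. The reads carry no molecular identifiers, so copies of a fragment could not be removed and the intervals may be too narrow.

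**Figure D1:**
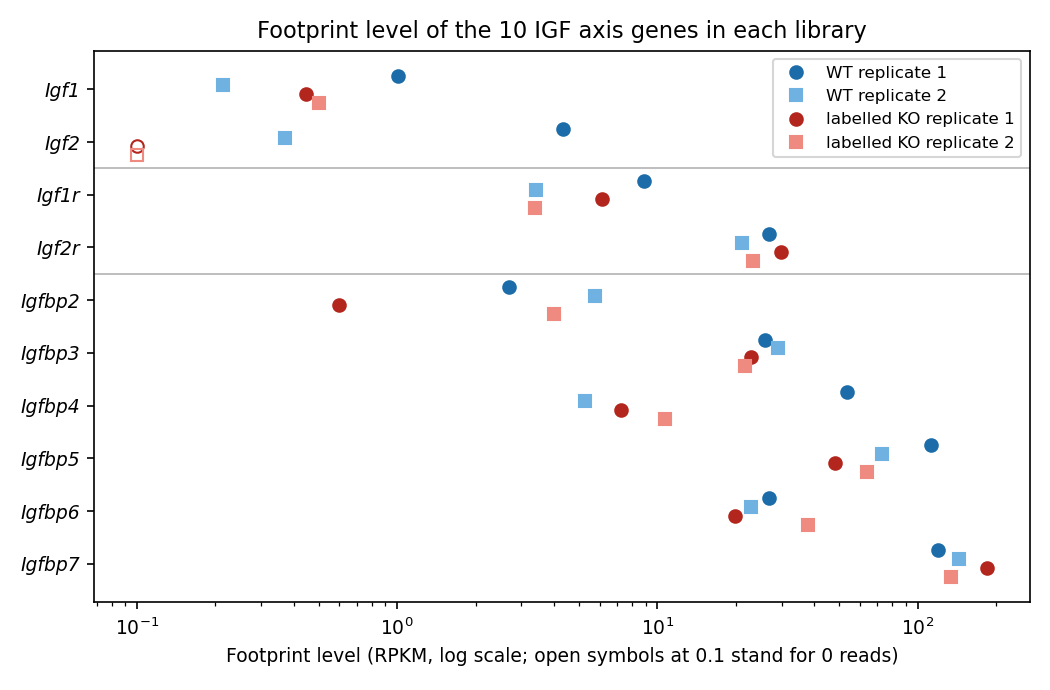
Level of each member in each library, as deposited RPKM on a log axis. Points are single libraries, circles are replicate 1, squares are replicate 2, blue is WT, red is KO-labelled, and open symbols at 0.1 stand for 0 reads. Igfbp7 (119 to 185 RPKM) and Igfbp5 (48.3 to 112 RPKM) lie above all other members in every library, while Igf1 stays at or below 1.00 RPKM and Igf2 has 0 reads in both KO-labelled libraries.

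The ligands had few footprints at this depth. Igf1 (chromosome 10, 87858265 to 87937042, plus strand), the main mediator of growth hormone, drew 6 reads in WT replicate 1, 1 read in WT replicate 2 and 4 reads in each of the KO-labelled libraries. Its level ran from 0.214 RPKM in WT replicate 2 to 1.00 RPKM in WT replicate 1, and the groups overlapped. Its mean was under the minimum of 1 RPKM, so it was not tested.

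Igf2 (chromosome 7, 142650766 to 142666816, minus strand), the ligand that myoblasts make as they differentiate, had 15 reads in WT replicate 1, 1 read in WT replicate 2 and 0 reads in both KO-labelled libraries. The levels were 4.35, 0.371, 0 and 0 RPKM. Against a floor of 3 reads per library, below which a level was not told from 0, the mean of the KO-labelled libraries was at least 3.85-fold lower than that of WT, and this bound rests on WT replicate 1. The fitted log2 difference was -1.44 ± 0.99 (SE, 95% interval -3.88 to 1.01, unadjusted p = 0.199, adjusted p = 0.698 in limma). It was -0.46 without WT replicate 1 and -2.42 without WT replicate 2, and -3.86 with a pseudocount of 0.1. WT replicate 1 was also the library with the most reads on Myog, a driver of myoblast differentiation, which had 82, 3, 1 and 2 reads. The 14 differentiated muscle markers summed to 233 RPKM there and 77.1 RPKM in WT replicate 2, though some of them were higher in WT replicate 2. Any link between these markers and the Igf2 value was not tested.

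The gene models limit what the Igf2 value means. Of the 576 coding bases of Igf2, 549 (95.3%) also lay in exons of Gm49394, a longer protein-coding model on the same strand. Gm49394 had 0 reads in every library, and so had the antisense gene Igf2os. How reads that fall in more than 1 gene were counted was not given in the sources used here, so the low Igf2 values are uncertain. H19, the noncoding RNA imprinted in the opposite sense, lies 72.6 kb from Igf2. It drew 376 and 23 reads in WT against 18 and 30 in the KO-labelled libraries, or 254, 19.8, 8.07 and 15.1 RPKM, with a log2 difference of -2.59 (unadjusted p = 0.0660, adjusted p = 0.676 in limma). Like Igf2, it was high in WT replicate 1, and the difference was -0.79 without that library and -4.40 without WT replicate 2.

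Mir483, a microRNA gene inside Igf2, drew 4 and 15 reads in WT against 2 and 9 in the KO-labelled libraries, and the groups overlapped. It was highest in WT replicate 2, where Igf2 had a single read. Its mature forms are shown (RefSeq, GRCm38.p6) because they are the sequences of the Igf2 locus that a short-fragment library can hold apart from footprints, with the seed, bases 2 to 8, in capitals.
mmu-miR-483-3p, chr7:142654932-142654952, minus strand: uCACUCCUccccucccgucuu
mmu-miR-483-5p, chr7:142654968-142654989, minus strand: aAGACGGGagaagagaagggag
Which part of the hairpin the reads came from cannot be read from sums per gene.

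Both receptors were detected in every library. Igf1r (chromosome 7, 67952827 to 68233668, plus strand), the signalling receptor, drew 90 and 27 reads in WT against 93 and 46 in the KO-labelled libraries, or 8.89, 3.41, 6.11 and 3.39 RPKM. The groups overlapped, and within each group replicate 1 was the higher. Its log2 difference was -0.24 ± 0.53 (SE, 95% interval -1.54 to 1.06, adjusted p = 0.892 in limma). The direction turned with single libraries, to 0.34 without WT replicate 1 and 0.11 without KO-labelled replicate 2, and was -0.82 without WT replicate 2. Scaled to total reads, which moved the median gene by 0.50, it was 0.26.

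Igf2r (chromosome 17, 12682406 to 12769664, minus strand), the clearance receptor, drew 150 and 93 reads in WT against 252 and 175 in the KO-labelled libraries, or 26.7, 21.2, 29.8 and 23.3 RPKM. The groups again overlapped. A log2 difference of 0.14 ± 0.41 (SE, 95% interval -0.86 to 1.14, adjusted p = 0.920 in limma) was fitted. It was -0.019 without WT replicate 2 and -0.032 without KO-labelled replicate 1. Under the same total-read scaling it was 0.73, and the groups then did not overlap. Airn, the antisense RNA of this imprinted locus, had 4, 1, 4 and 0 reads.

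On the deposited length Igf2r thus stood above Igf1r in each library. The ratio of their RPKM was 3.01 and 6.21 in WT and 4.89 and 6.86 in the KO-labelled libraries, and these overlapped (exact permutation p = 0.667, two-sided). Coding sequence makes up 80.1% of the deposited length of Igf2r but 24.5% of that of Igf1r, whose model is mostly untranslated. Per kilobase of coding sequence, the levels of the receptors were 29.9 ± 4.88 for Igf2r and 25.1 ± 15.8 for Igf1r in WT (SD, n = 2), and their ranges overlapped. The order turned in WT replicate 1, with Igf1r at 36.3 and Igf2r at 33.4. In the KO-labelled libraries the levels of Igf2r and Igf1r were 33.2 ± 5.81 and 19.4 ± 7.84, and did not overlap.

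Of the 6 binding proteins, 5 had more than 10 reads in every library, and Igfbp2 was under the floor of 3 reads in KO-labelled replicate 1. Igfbp5 (chromosome 1, 72857932 to 72874884, minus strand), a binding protein that skeletal muscle cells are known to secrete, had the most reads of any member, with 407 and 207 in WT and 263 and 311 in the KO-labelled libraries. The levels were 112 and 73.2 RPKM in WT and 48.3 and 64.1 RPKM in the KO-labelled libraries. Neither KO-labelled value reached the lower WT value. A log2 difference of -0.70 ± 0.47 (SE; 95% interval -1.86 to 0.47) was fitted (unadjusted p = 0.192, adjusted p = 0.697 in limma). The interval reaches from 3.62-fold lower to 1.38-fold higher. It was -0.39 without WT replicate 1 and -1.001 without WT replicate 2. Scaled to total reads the difference was -0.09, and it was -0.42 after a correction for GC content and length.

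Igfbp7 (chromosome 5, 77349240 to 77408041, minus strand), a secreted relative that binds IGFs weakly and is known as a product of vessels and stroma, drew 87 and 82 reads in WT against 203 and 131 in the KO-labelled libraries. The levels were 119, 144, 185 and 134 RPKM. The groups overlapped, since the KO-labelled replicate 2 lay between the WT libraries. Igfbp7 had a log2 difference of 0.26 ± 0.48 (SE, 95% interval -0.91 to 1.44, adjusted p = 0.867 in limma). It was 0.033 without KO-labelled replicate 1, 0.49 without KO-labelled replicate 2 and 0.13 without WT replicate 1. Quantile normalization gave 0.60, and total-read scaling, which shifts the median gene by 0.50, gave 0.88. The end of Igfbp7 overlaps Polr2b on the opposite strand by 85 exon bases, none of them coding for Igfbp7.

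Igfbp3 (chromosome 11, 7206086 to 7213923, minus strand), the main carrier of IGFs in blood, drew 49 and 43 reads in WT against 65 and 55 in the KO-labelled libraries. The levels were 26.0 and 29.2 RPKM in WT and 22.9 and 21.8 RPKM in the KO-labelled libraries. Its groups did not overlap, with WT the higher, and its replicates were close. Igfbp3 had a log2 difference of -0.29 ± 0.39 (SE, 95% interval -1.24 to 0.66, adjusted p = 0.814 in limma). It was 0.30 under that total-read scaling and 0.11 after the GC and length correction. It was -0.41 scaled to protein-coding reads and -0.33 with quantile normalization.

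Igfbp4 (chromosome 11, 99041244 to 99054392, plus strand), which restrains IGF action until it is cleaved by the protease PAPP-A, had 143 reads in WT replicate 1 and 11 in WT replicate 2. The KO-labelled libraries had 29 and 38 reads. The levels were 53.7, 5.29, 7.24 and 10.7 RPKM, so that WT replicate 1 held the highest value and WT replicate 2 the lowest. The log2 difference was -0.92 ± 0.99 (SE, 95% interval -3.36 to 1.52, adjusted p = 0.768 in limma). It was 0.64 without WT replicate 1 and -2.48 without WT replicate 2.

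Igfbp2 (chromosome 1, 72824503 to 72852474, plus strand), an IGF2-preferring binding protein, drew 3 and 5 reads in WT against 1 and 6 in the KO-labelled libraries, or 2.69, 5.75, 0.597 and 4.02 RPKM. The groups overlapped, and the log2 difference of -0.82 ± 0.67 (SE, 95% interval -2.46 to 0.83, adjusted p = 0.722 in limma) rested on 15 reads in all. It was 0.0086 without KO-labelled replicate 1 and -1.64 without KO-labelled replicate 2. Igfbp2 lies 5.46 kb from Igfbp5 on the same chromosome, so neighbouring genes of the family stood far apart in level. Igfbp6 (chromosome 15, 102144362 to 102149511, plus strand), which also prefers IGF2, drew 18 and 12 reads in WT against 20 and 34 in the KO-labelled libraries. Its levels were 26.9, 22.9, 19.8 and 37.9 RPKM, with both extremes in the KO-labelled libraries. Igfbp6 had a log2 difference of 0.14 ± 0.47 (SE, 95% interval -1.02 to 1.30, adjusted p = 0.934 in limma). It was 0.59 without KO-labelled replicate 1 and -0.31 without KO-labelled replicate 2, and 0.73 scaled to total reads.

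The order of the members depended on the length used. On the deposited length, Igfbp7 was the highest in WT (132 ± 17.4 RPKM; SD, n = 2), followed by Igfbp5 (92.8 ± 27.8), and the ranges of these neighbours did not overlap. Igfbp4 (29.5 ± 34.2), Igfbp3 (27.6 ± 2.26), Igfbp6 (24.9 ± 2.79) and Igf2r (24.0 ± 3.91) came next and overlapped from each to the next, while Igf2r did not overlap Igf1r below it. Igf1r, Igfbp2, Igf2 and Igf1 closed the order, and there each overlapped the next. In the KO-labelled libraries the order was Igfbp7 (160 ± 36.0), Igfbp5 (56.2 ± 11.2), Igfbp6 (28.8 ± 12.7), Igf2r (26.6 ± 4.65), Igfbp3 (22.3 ± 0.807), Igfbp4 (8.95 ± 2.41), Igf1r (4.75 ± 1.92), Igfbp2 (2.31 ± 2.42), Igf1 and Igf2. There the neighbours that overlapped were Igfbp6 with Igf2r and Igf1r with Igfbp2.

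Footprints fall mainly on coding sequence, and the deposited lengths are those of all exons. Coding sequence made up 5.03% of the deposited length of Igf1, 13.6% of that of Igfbp5 and 77.9% of that of Igfbp7. Per kilobase of coding sequence, with the same library scaling, Igfbp5 was the highest in both groups, at 683 ± 204 in WT and 414 ± 82.4 in the KO-labelled libraries (SD, n = 2). Igfbp7 stood at 169 ± 22.3 and 205 ± 46.3, and Igfbp4 at 170 ± 198 and 51.6 ± 13.9. The change of length moved 6 of the 10 members to another rank in WT and 8 of the 10 in the KO-labelled libraries. Coding length alters levels between genes only, and leaves each gene's own fold between groups as it was.

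**Figure D2:**
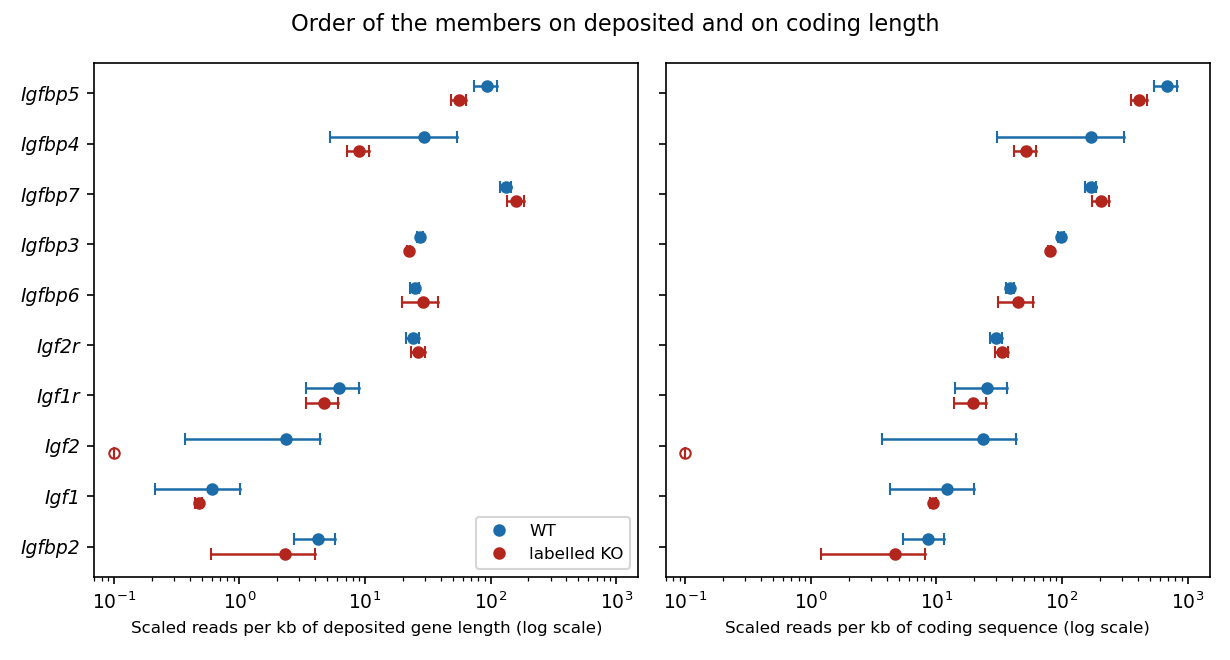
Mean level of each member per kilobase of deposited gene length (RPKM) and per kilobase of coding sequence, on log axes. Lines join the 2 libraries of a group, and the open symbol at 0.1 stands for 0 reads of Igf2. Igfbp7 leads on the deposited length (132 RPKM in WT) and Igfbp5 leads on coding length (683 in WT and 414 in the KO-labelled libraries).

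Shares within the binding proteins do not depend on the scaling between libraries. Igfbp5 made up 33.0% and 26.1% of the summed RPKM of the 6 binding proteins in WT and 17.0% and 23.5% in the KO-labelled libraries. The means were 29.5% ± 4.85 and 20.3% ± 4.61 (SD, n = 2), and the groups did not overlap. The exact permutation test gave p = 0.333 (two-sided), the smallest that 2 libraries against 2 allow. The difference of -9.27 points was -5.84 without WT replicate 1 and -12.7 without WT replicate 2. Igfbp7 made up 35.0% and 51.4% in WT and 65.2% and 49.2% in the KO-labelled libraries, and these overlapped (exact permutation p = 0.667). The ratio of Igfbp5 to Igfbp7 was 0.942 and 0.508 in WT and 0.261 and 0.478 in the KO-labelled libraries (exact permutation p = 0.333), so the groups did not overlap there either.

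Of the other binding proteins, Igfbp4 moved most between the WT replicates, with 15.8% in replicate 1 and 1.89% in replicate 2. It took 2.55% and 3.91% in the KO-labelled libraries. Igfbp3 stayed between 7.62% and 10.4%, Igfbp6 between 6.98% and 13.9%, and Igfbp2 between 0.210% and 2.05%. On coding length the share of Igfbp5 was 57.9% and 59.5% in WT and 47.5% and 55.5% in the KO-labelled libraries, which also did not overlap. On that scale Igfbp5 thus held the largest share of the 6 in every library. The share of Igfbp7 was 10.7% and 20.4% in WT and 31.8% and 20.3% in the KO-labelled libraries.

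**Figure D3:**
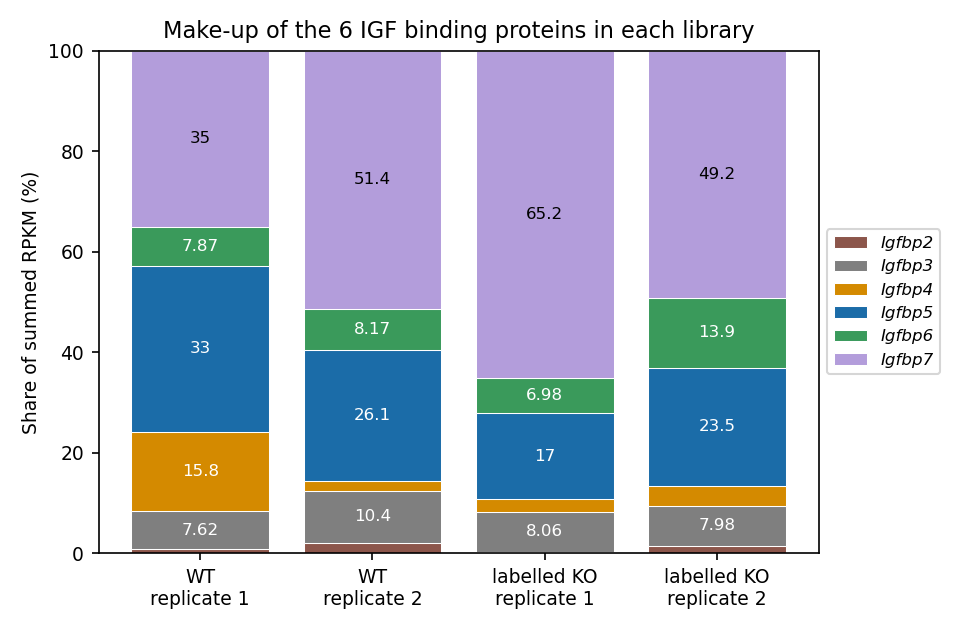
Share of each of the 6 binding proteins in their summed RPKM, as stacked bars from 0 to 100%, for each library. Igfbp5 takes 26.1% to 33.0% in WT and 17.0% to 23.5% in the KO-labelled libraries, and the block of Igfbp4 is wide in WT replicate 1 only.

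Of the 10 members, 9 were tested and 0 had an adjusted p under 0.05 in limma, where 0.106% of all 11363 genes tested were called. In limma 0 of the 9 had an unadjusted p under 0.05, against 7.32% of all genes tested. A limma-voom fit on the recovered reads, which was added once the data had been seen, gave Igf2 a log2 difference of -4.19 (unadjusted p = 0.0207). It was the only 1 of the 9 under 0.05 in that fit, against 10.6% of all genes in it, and no member had an adjusted call. In 3 members, Igf2, Igfbp3 and Igfbp5, both KO-labelled libraries lay below both WT libraries, as in 20.3% of all genes tested. In 0 members did both lie above, against 20.1% of all genes. For Igf2 the separation rests on 1 read in WT replicate 2, which is under the floor of 3 reads. Scaled to total reads, which moved the median gene by 0.50 (log2), the split was 1 lower and 4 higher, against 7.55% and 41.8% of all genes in that fit. With the correction for GC content and length it was 1 lower and 3 higher, against 20% and 19.9% of all genes. The median log2 difference was -0.29 over the 9 members and 0.0003 over all genes tested, and it was -0.29 also with Igf2 at its bound. The members' median was 0.13 without WT replicate 1, 0.26 scaled to total reads and -0.14 with the GC and length correction. Standard errors ran from 0.39 for Igfbp3 to 0.99 for Igf2. A p that misses the threshold does not show that the levels were equal, and the intervals of Igf2r, Igfbp6 and Igfbp7 still reach 2.21-, 2.46- and 2.72-fold higher.

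**Figure D4:**
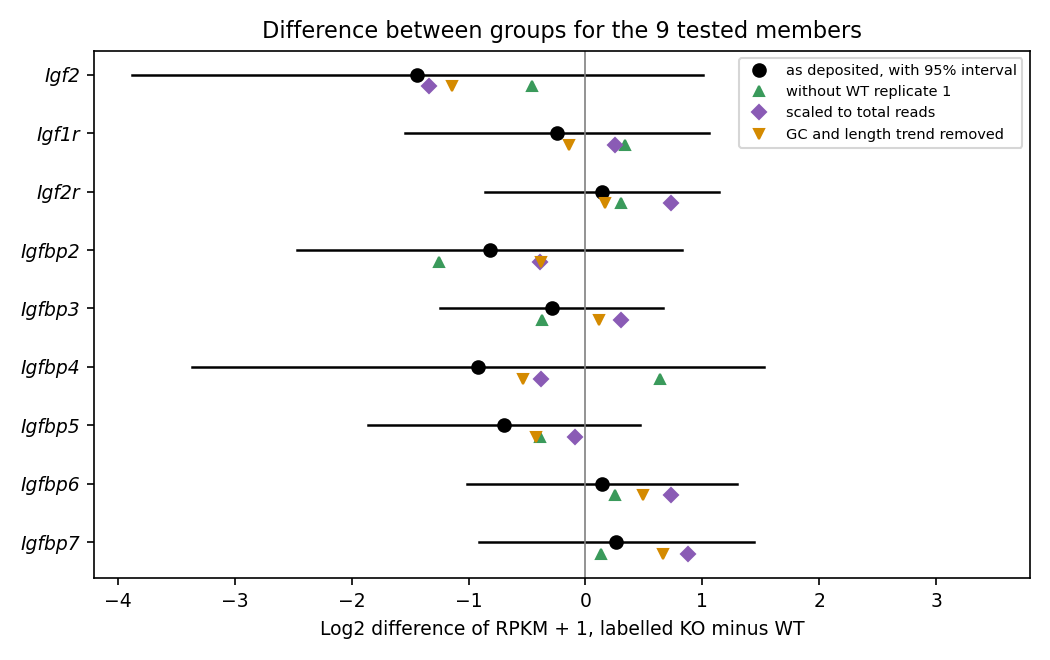
Log2 difference, KO-labelled libraries minus WT, of the 9 members tested, with 95% intervals from limma on log2(RPKM + 1) in black. Coloured symbols give the difference without WT replicate 1, scaled to total reads, or corrected for GC content and length. The interval crosses 0 for each member, and the widest are those of Igf2 (-3.88 to 1.01) and Igfbp4 (-3.36 to 1.52).

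The members share a feature that the choice of genes did not use. The coding sequences of 7 of the 9 tested members, all but Igf1r (54.3% GC) and Igf2r (51.7% GC), were in the most GC-rich decile of protein-coding genes, which begins at 60.5% GC. Over all protein-coding genes tested, the median log2 difference moved with GC content, from 0.38 in the lowest decile to -0.48 in the highest. Igfbp7 at 0.26 and Igfbp6 at 0.14 lay above that -0.48, as did Igfbp3 at -0.29, while Igfbp5, Igfbp2, Igfbp4 and Igf2 lay below it. After each library was corrected for its trend on coding GC content and length, the values were 0.66 for Igfbp7, 0.49 for Igfbp6, 0.11 for Igfbp3, -0.38 for Igfbp2, -0.42 for Igfbp5, -0.53 for Igfbp4 and -1.14 for Igf2. All 95% intervals still crossed 0. Base composition and genotype cannot be told apart in these 4 libraries.

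**Figure D5:**
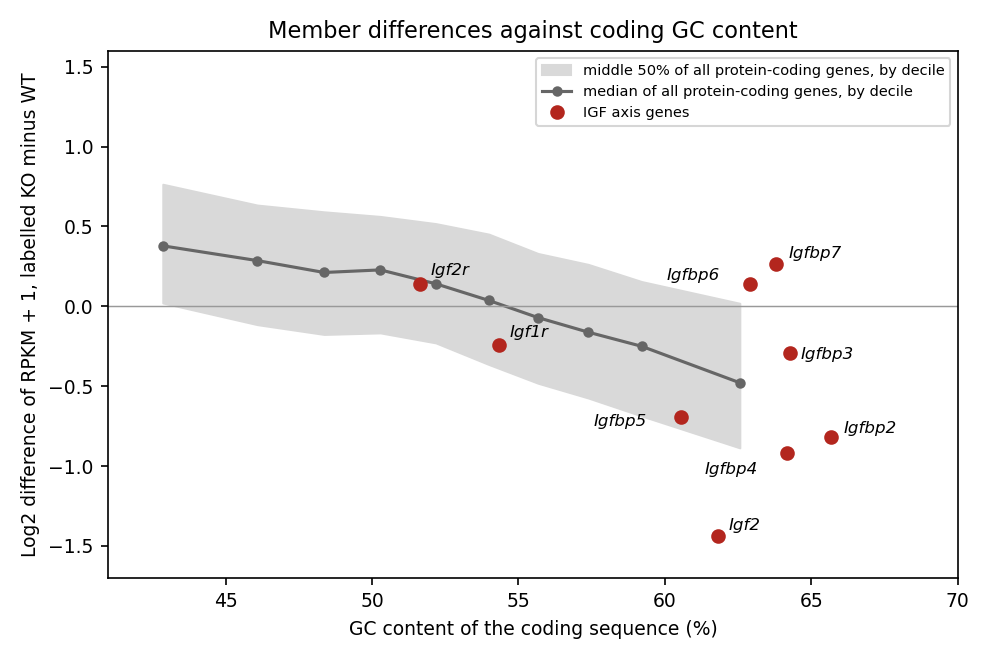
Median log2 difference (KO-labelled libraries minus WT) of protein-coding genes in deciles of coding GC content, with a grey band for the middle 50% of genes and the 9 tested members as points against the GC content of their coding sequence in percent. The median runs from 0.38 in the lowest decile to -0.48 in the highest, which holds 7 of the 9 members.

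Other genes that act with the axis were examined in 5 lists of 50 genes, of which 37 were tested. None had an adjusted p under 0.05 in limma. Of the 37, only Foxo4, a transcription factor that Akt holds inactive, had an unadjusted p under 0.05, with 13 and 15 reads in WT against 3 and 6 in the KO-labelled libraries. That is 1 of 37, beside 7.32% of all genes tested. Its log2 difference was -1.79 (unadjusted p = 0.00678, adjusted p = 0.601 in limma). Groups did not overlap in 17 of the 37, with 14 lower and 3 higher in the KO-labelled libraries. Of all genes tested 40.4% did not overlap, 20.3% lower and 20.1% higher. The median log2 difference of the 37 was -0.33.

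Among other ligands, receptors and carriers, the insulin receptor gene Insr drew 40 and 20 reads in WT against 46 and 32 in the KO-labelled libraries, with a log2 difference of -0.19. It was the only 1 of the 6 in that list to be tested. Ins1, Ins2 and Igfbp1 had 0 reads in every library, and Igfals and Insrr had 1 read each. Igfbp1 lies 3.54 kb from Igfbp3, which was read in every library.

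Of the proteases that cleave binding proteins and their inhibitors, 3 of 6 were tested. None had non-overlapping groups, beside 40.4% of all genes tested. Htra1, a secreted serine protease, drew 41 and 59 reads in WT against 112 and 71 in the KO-labelled libraries (log2 difference 0.17). Adam12, a metalloprotease, drew 32 and 9 reads in WT against 19 and 14 in the KO-labelled libraries (log2 difference -0.55).

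Of the receptor adaptors, 8 of 10 were tested, with 3 lower and 1 higher in both KO-labelled libraries, beside 20.3% and 20.1% of all genes. Grb10, an imprinted adaptor that dampens insulin and IGF signalling, drew 110 and 87 reads in WT against 145 and 123 in the KO-labelled libraries, a log2 difference of -0.22. Irs2, an insulin receptor substrate, drew 86 and 25 reads in WT against 59 and 61 in the KO-labelled libraries (log2 difference -0.30).

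The relay from PI3K to Akt and mTOR had 23 of 24 genes tested, with 9 lower and 2 higher in both KO-labelled libraries, beside those 20.3% and 20.1% of all genes. Akt1 drew 86 and 59 reads in WT against 66 and 88 in the KO-labelled libraries, a log2 difference of -0.56. Rheb, the GTPase that switches on mTORC1, drew 67 and 41 reads in WT against 87 and 90 in the KO-labelled libraries, a log2 difference of 0.07. Of the Igf2 mRNA-binding proteins and H19, 2 of 4 were tested. Both were lower in both KO-labelled libraries, as were 20.3% of all genes tested. Igf2bp2 drew 42 and 18 reads in WT against 33 and 24 in the KO-labelled libraries (log2 difference -0.56), and H19 is given above.

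The genes whose pattern over the 4 libraries was most like that of Igfbp5 were sought among 3356 protein-coding genes with at least 100 reads. The measure was the root mean square distance between centred log2(RPKM + 1) values. Among the 5 nearest were Rgs5 (0.0351), Elk4 (0.0373), Gga1 (0.0419) and Zmiz1 (0.0502). Rgs5, a regulator of G protein signalling also used here as a mural cell marker, had 17.9 and 11.7 RPKM in WT and 7.76 and 10.3 RPKM in the KO-labelled libraries. The 5 mural markers tested had a median log2 difference of -0.09, and whether Igfbp5 follows mural cells was not tested. The likeness is over 4 libraries only and is a description.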

How the data were processed

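The authors made Ribo-seq libraries from myoblasts, aligned the reads to the mouse genome (mm10, GRCm38) with TopHat2 and counted them per gene with HTSeq, as the study and the submitters' processing notes give it. Strand and multi-mapping settings were not given in the sources used here. The authors deposited RPKM values for 55573 genes in 4 libraries, 2 per group. RPKM multiplied by gene length and divided by the smallest product of a library gave whole reads for 100% of values (tolerance 0.01). The implied scaling equalled median-of-ratios size factors, which hides any shift common to most genes. Depth was 642429 to 704006 reads, and 3 reads equal 3.31 to 6.37 RPKM for a gene of 1 kb.

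The test was limma 3.58.1 (R 4.3.3; lmFit, eBayes with a variance trend) on log2(RPKM + 1), with group as the only term and genes with a mean of at least 1 RPKM (11363). Two-sided p-values were Benjamini-Hochberg adjusted over all these genes, with a threshold of 0.05. Log2 differences on this scale understate low genes. Shares and ratios were tested with the exact permutation test (SciPy 1.17.1). The fit was also run on simulated data with a fixed spread, where only genes with at least 100 reads were changed. That run does not cover members with fewer reads.

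The members and lists were chosen with earlier results of these data known. All members were named, with the 2 genes of each pathway list that had the most reads, those with an unadjusted p under 0.05, and the 5 genes most like the member with the most reads, of which 1 is not reported here. Myog, Airn, Polr2b, Mir483, Gm49394 and Igf2os were added for results that touch them. Alternatives changed the pseudocount, filter, scaling, variance prior and gene length, removed GC and length trends, added a replicate block, left out each library, and used voom on recovered reads.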

Additional observations from a re-analysis of the deposited data

How the results depend on the processing

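No member was called at an adjusted p under 0.05 in any of the 18 fits run, including the fit with the replicate block, which gave 0 members called and took the calls over all genes from 12 to 0. The numbers in the labels are replicate numbers only, and deviations of same-numbered libraries correlated at r = 0.206 over 3355 genes. Over all genes, calls were 21 with a robust variance prior, 64 with voom, 13 with scaling to protein-coding reads, 12 with quantile normalization, 3 with the GC and length trend removed beside the block, and 0 in the others. Scaling to total reads moved the median gene by 0.50 (log2). With it, Igf1r was 0.26, Igfbp3 0.30 and the members' median 0.26, with 1 member lower and 4 higher without overlap. With the GC and length trend removed, alone or with the replicate block, Igfbp3 was 0.11, with 1 lower and 3 higher. Quantile normalization gave 1 higher, against 22.8% of all genes. Voom gave 1 member with an unadjusted p under 0.05. Pathway genes with an unadjusted p under 0.05 numbered 0 at a minimum of 5 RPKM, 3 with total reads, 2 with the trend removed (also with the block) and 2 with voom, where 9.16%, 16.2%, 7.29% (8.27%) and 10.6% of all genes had one. On coding length the share of Igfbp3 was 1.03 points higher in the KO-labelled libraries, and 6 (WT) and 8 (KO-labelled) members changed rank. Igf2 and Igfbp2 have no value at a minimum of 5 RPKM. Leaving out 1 library at a time, the log2 difference ranged from -2.42 to -0.46 for Igf2, -1.001 to -0.39 for Igfbp5, 0.033 to 0.49 for Igfbp7, -0.82 to 0.34 for Igf1r, -0.032 to 0.31 for Igf2r, -1.64 to 0.0086 for Igfbp2, -2.48 to 0.64 for Igfbp4, -0.31 to 0.59 for Igfbp6 and -0.38 to 0.13 for the median. The share difference ranged, in percentage points, from -1.21 to 0.055 for Igfbp2, -2.38 to 0.41 for Igfbp3, -12.5 to 1.34 for Igfbp4, -12.7 to -5.84 for Igfbp5, -1.04 to 5.87 for Igfbp6 and 5.83 to 22.2 for Igfbp7. These fits gave 0 to 2 members and 0 to 2 pathway genes with an unadjusted p under 0.05, where 3.78% to 14.1% of all genes had one. They gave 4 to 5 members lower and 1 to 2 higher without overlap, where 30.4% to 39.4% and 31.7% to 35.9% of all genes did. In them a lone library is assumed to vary like the other group. The causes were not tested. Depth limits Igf1, Igf2 and Igfbp2, with at most 15 reads in a library.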
